A study of Mus musculus with 20 samples.

Results

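The comparison described here sets striatal RNA of mice given d-amphetamine against striatal RNA of mice given saline, with both mouse lines pooled. Its members are all 20 libraries of the series, 10 a side, and all 26475 loci of the count table that carry a gene symbol, of 37051 loci in the table. Of these, 17206 had enough counts to be tested. The mice were males of a Collaborative Cross population, a mouse resource bred from several inbred founder strains, at an age of about 6 months. The saline side held 5 mice of the control line and 5 mice of a line selected for overactivity in the home cage. The amphetamine side likewise held 5 control and 5 overactive mice, which received 25 mg/kg of d-amphetamine. The whole striatum was taken 2 hours after the injection, and each library was 1 mouse. The line was a covariate in the model, so each value below is the difference between treatments averaged over the lines. The labels describe no transgene and no other treatment.

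Amphetamine enters dopamine terminals through the dopamine transporter, empties the synaptic vesicles through the vesicular monoamine transporter and raises extracellular dopamine. Dopamine acts on the projection neurons of the striatum, which carry either D1 receptors with the peptides substance P and dynorphin (the direct pathway) or D2 receptors with enkephalin (the indirect pathway). Stimulation of D1 receptors raises cAMP, and phosphorylated CREB then binds cAMP response elements in promoters of immediate early genes such as Fos. At high doses amphetamine also raises body temperature and circulating glucocorticoids.

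Library totals ran from 31393788 to 53773028 counts, and the median standard error (SE) of a log2 fold change was 0.077. The striatal identity of the tissue was checked by projection neuron genes. Ppp1r1b (DARPP-32) ran from 891.5 to 1698 CPM (counts scaled to a common library size) and Drd1a from 179.3 to 302.8 CPM over the 20 libraries, so every library held striatal RNA. Markers of excitatory neurons of the cortex and hippocampus, which lie next to the striatum, were also present and differed between the sides. Their summed level ran from 1031 to 2669 CPM in the saline libraries (median 1531) and from 1206 to 2931 CPM in the amphetamine libraries (median 2397). The median of each gene list below is therefore given also with a per-library score of these markers as a covariate, called the cortical score. In bulk tissue, fewer cells of a type and less RNA per cell cannot be told apart.

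No gene passed an adjusted p under 0.05 in edgeR's quasi-likelihood test. At an unadjusted p under 0.05, edgeR found 1948 genes, which is 11.3% of those tested, 1136 with a positive log2 fold change (6.6%) and 812 with a negative one (4.72%). limma-voom with sample weights also called 0 genes, with 2469 at an unadjusted p under 0.05. DESeq2 called 183 genes, 143 higher and 40 lower after amphetamine, and left 7673 genes without an adjusted p. All 183 were among the 1948. A positive log2 fold change was seen in 8164 genes (47.4%), and the median over all genes was -0.0059.

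The gene with the smallest edgeR p was Gabra5, which encodes the alpha 5 subunit of the GABA-A receptor, a chloride channel that mediates tonic inhibition in the hippocampus. It lies on chromosome 7 from 57407669 to 57591016 (GRCm38). Its level in the saline libraries had a lowest value of 31.5, a median of 37.1 and a highest value of 40.0 CPM. In the amphetamine libraries the lowest was 40.5, the median 43.3 and the highest 50.4 CPM. The sides did not overlap, also not within either line, and Gabra5 was the 1 gene of 17206 (0.00581%) of which either held. Its log2 fold change was 0.24 (SE 0.04, edgeR adjusted p = 0.145), 0.22 (SE 0.06) in the control line and 0.25 (SE 0.06) in the overactive line. With the cortical marker score as a covariate it was 0.15 (SE 0.04, unadjusted p = 0.00228 by edgeR). DESeq2 gave an adjusted p of 0.000259.

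**Figure D1:**
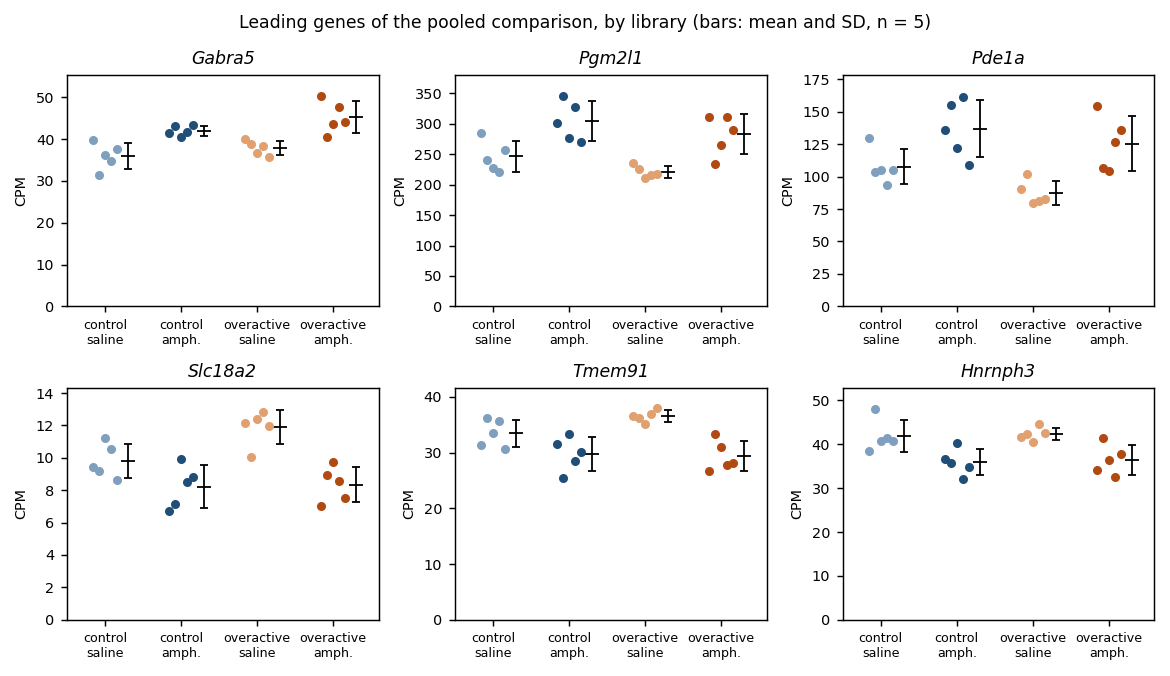
CPM of 6 leading genes in each of the 20 libraries, in 4 groups of 5; each point is 1 mouse and the black bar is the mean with its SD. All 10 Gabra5 values after amphetamine (40.5 to 50.4 CPM) lie above all 10 saline values (31.5 to 40.0 CPM), while the other genes overlap between the sides.

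The promoters of 4 genes are shown because the results below return to them: the gene that separated the sides, the vesicular monoamine transporter, the orphan nuclear receptor with the highest log2 fold change among the immediate early genes, and the chaperone gene with the smallest p of its list. Each is 300 bases of RefSeq sequence (GRCm38.p6) from 250 bases before an annotated start to 50 after it, 5' to 3' on the strand of the gene. For Gabra5 this start lies inside the gene span given above and not at its outer 5' end. The stretch shown for Gabra5 therefore says nothing about sequence at that outer end. Capitals mark TGACGTCA (the full cAMP response element) in Slc18a2, TGACG (its core) on either strand in Nr4a2, and TTCNNGAA (an arrangement of the units of the heat shock element) in Hspe1. None of the cAMP motifs occurred in the stretch of Gabra5, which is shown without capitals. That stretch held 1 match to TTCNNGAA, which begins 101 bases before its annotated start and is not marked.
Gabra5, chr7:57510010-57510309, minus strand: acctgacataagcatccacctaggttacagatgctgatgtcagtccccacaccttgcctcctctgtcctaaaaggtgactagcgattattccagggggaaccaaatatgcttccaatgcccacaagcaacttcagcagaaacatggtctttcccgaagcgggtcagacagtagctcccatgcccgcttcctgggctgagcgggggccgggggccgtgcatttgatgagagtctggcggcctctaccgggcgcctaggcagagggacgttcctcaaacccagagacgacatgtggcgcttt
Slc18a2, chr19:59260628-59260927, plus strand: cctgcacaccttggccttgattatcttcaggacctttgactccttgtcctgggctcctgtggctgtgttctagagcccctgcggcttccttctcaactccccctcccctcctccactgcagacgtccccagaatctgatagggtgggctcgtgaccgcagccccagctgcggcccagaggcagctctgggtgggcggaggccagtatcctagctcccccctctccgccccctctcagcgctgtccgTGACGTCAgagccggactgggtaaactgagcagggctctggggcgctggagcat
Nr4a2, chr2:57123954-57124253, minus strand: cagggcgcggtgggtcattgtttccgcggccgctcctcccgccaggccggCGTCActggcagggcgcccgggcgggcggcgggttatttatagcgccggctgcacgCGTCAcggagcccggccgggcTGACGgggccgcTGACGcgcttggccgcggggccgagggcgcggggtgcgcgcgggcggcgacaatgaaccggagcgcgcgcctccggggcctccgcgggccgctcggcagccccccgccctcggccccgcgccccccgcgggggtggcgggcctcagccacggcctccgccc
Hspe1, chr1:55087898-55088197, plus strand: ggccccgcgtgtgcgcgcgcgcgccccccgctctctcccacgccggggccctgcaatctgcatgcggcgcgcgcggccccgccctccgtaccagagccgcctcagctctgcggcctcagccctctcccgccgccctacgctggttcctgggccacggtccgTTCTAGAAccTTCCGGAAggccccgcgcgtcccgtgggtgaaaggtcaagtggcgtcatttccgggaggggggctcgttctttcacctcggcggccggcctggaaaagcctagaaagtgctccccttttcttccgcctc
Of 32851 RefSeq promoters of this length, 1.79% held TGACGTCA, 20.8% held TGACG, 8.52% held TTCNNGAA and 7.86% held GAANNTTC on either strand. TGACGTCA contains TGACG on both strands, so the first motif is a subset of the second. A match is a stretch of letters and no evidence of a bound factor.

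The 12 genes with the smallest p among those with a positive log2 fold change included Gabra5 and 4 genes of synaptic or vesicle proteins that are described first. Rims1 is a scaffold of the active zone, Rph3a (rabphilin 3A) binds Rab3 on vesicles, Syt11 is a synaptotagmin and Sh3gl2 (endophilin A1) acts in the retrieval of vesicle membrane. Rims1 had a median of 35.8 CPM in saline (33.8 to 49.8) and 55.4 CPM after amphetamine (36.1 to 69.6), a log2 fold change of 0.47 (SE 0.10, edgeR adjusted p = 0.165). Sh3gl2 had a median of 140 CPM in saline (129.6 to 185.2) and 175 CPM after amphetamine (148.9 to 224.3), a log2 fold change of 0.30 (SE 0.06). The ranges of both genes overlapped between the sides. Syt11 ran from 727.6 to 789.3 CPM in saline and from 770.2 to 844.4 CPM after amphetamine, with a log2 fold change of 0.11 (SE 0.02). Rph3a had a log2 fold change of 0.23 (SE 0.05). All 4 had positive values in each line.

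Pde1a, a calmodulin-dependent phosphodiesterase that breaks down cyclic nucleotides, had a median of 98.1 CPM in saline (79.6 to 129.8) and 131.2 CPM after amphetamine (104 to 161.2). Its log2 fold change was 0.43 (SE 0.09, edgeR adjusted p = 0.165). Pgm2l1, which makes glucose 1,6-bisphosphate, had a median of 226.4 CPM in saline (211.3 to 285.7) and 296.1 CPM after amphetamine (234.7 to 346.2), a log2 fold change of 0.33 (SE 0.06, edgeR adjusted p = 0.145). For both genes the median after amphetamine lay above the highest saline value, while the sides overlapped. Gpd2, the mitochondrial glycerol phosphate dehydrogenase, had a log2 fold change of 0.27 (SE 0.06). The orphan receptor Gpr22 had 0.42 (SE 0.09), the interleukin 1 receptor accessory protein gene Il1rap 0.19 (SE 0.04), the ubiquitin ligase gene Rnf130 0.18 (SE 0.04) and the zinc finger gene Hivep1 0.34 (SE 0.07). The edgeR adjusted p of these 5 was 0.165 in each case.

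Among the 12 genes with the smallest p and a negative log2 fold change was Slc18a2, which encodes the vesicular monoamine transporter VMAT2, the vesicle carrier that amphetamine acts on. It lies on chromosome 19 from 59260878 to 59296012 (GRCm38), and the capitals in its promoter above begin 4 bases before the annotated start. In the control line the saline libraries held 8.63, 9.18, 9.43, 10.6 and 11.2 CPM and the amphetamine libraries 6.72, 7.13, 8.52, 8.83 and 9.92 CPM, which overlap. In the overactive line the saline libraries held 10.08, 11.99, 12.14, 12.4 and 12.84 CPM and the amphetamine libraries 7.002, 7.53, 8.56, 8.94 and 9.73 CPM. These do not overlap, but how many of all genes do so in 1 line alone was not counted. With both lines together the sides overlapped. Over both lines the log2 fold change was -0.38 (SE 0.08, edgeR adjusted p = 0.165). It was -0.25 (SE 0.11) in the control line and -0.51 (SE 0.11) in the overactive line, and the difference between the lines did not pass (edgeR interaction adjusted p = 0.99993, the same for every named gene). After adding the cortical marker score the log2 fold change was -0.28 (unadjusted p = 0.0116 by edgeR).

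Of the other 11 genes, Hnrnph3 and Rbm4b encode RNA-binding proteins that act in splicing, Hmgn1 a nucleosome-binding protein, Numa1 a mitotic spindle and nuclear protein, Suv420h2 (now Kmt5c) a histone H4 methyltransferase and Glis2 a zinc finger transcription factor. Hnrnph3 had a median of 41.5 CPM in saline (38.4 to 48.2) and 36.0 CPM after amphetamine (32.1 to 41.5), a log2 fold change of -0.22 (SE 0.05, edgeR adjusted p = 0.165). Hmgn1 had a median of 90.9 CPM in saline (85.1 to 93.8) and 81.6 CPM after amphetamine (71.9 to 90.6), a log2 fold change of -0.14 (SE 0.03, edgeR adjusted p = 0.199). In both genes the ranges overlapped. The log2 fold changes were -0.11 (SE 0.03) for Numa1, -0.16 (SE 0.04) for Rbm4b, -0.20 (SE 0.05) for Suv420h2 and -0.43 (SE 0.11) for Glis2. Cbl and Rnf25, both ubiquitin ligases, had -0.32 (SE 0.07) and -0.15 (SE 0.04). Tmem91 had -0.24 (SE 0.05), the glycosyltransferase gene Glt8d1 -0.26 (SE 0.06) and Iqcg, a gene of motile cilia, -0.24 (SE 0.06). All 12 genes were negative in each line.

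With the cortical marker score as a covariate, all 24 leading genes kept their sign and 23 stayed at an unadjusted p under 0.05 by edgeR, Rnf25 being the exception at 0.0554. Over all genes 3.685% stood at that p in this fit. Of the 1948 genes without the covariate, 321 (16.48%) stayed with the same sign. For the 24 genes the median ratio of the value with the covariate to the value without was 0.618. Values were nearly the same or larger in size with the covariate for Il1rap (0.21) and Cbl (-0.35). Of the 24 genes, 22 were called by DESeq2, and the other 2, Slc18a2 and Glis2, had no adjusted p there. DESeq2 called 183 of all 17206 genes. The 24 were chosen by their p in these same libraries, so passing a threshold in another fit is no independent support.

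**Figure D2:**
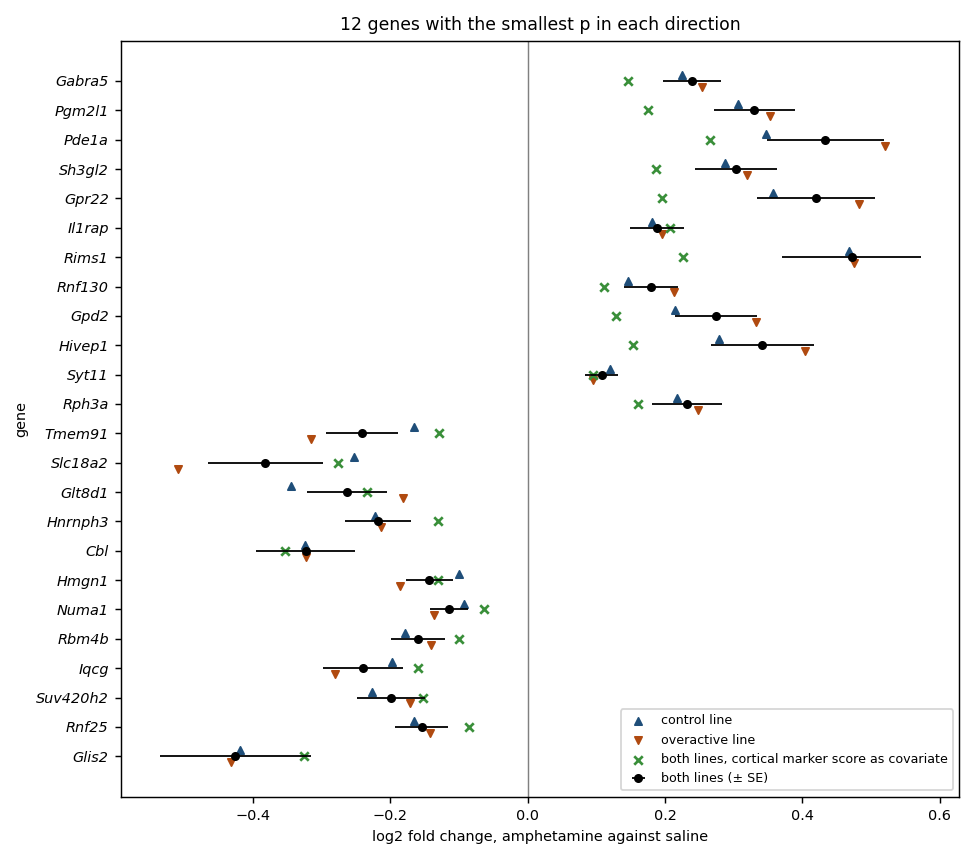
Log2 fold change, amphetamine against saline, of the 24 genes that lead by p, 12 positive and 12 negative; black points with SE bars are both lines together, triangles are each line and green crosses are the fit with the cortical marker score as a covariate. Signs are the same in every fit, and most crosses lie nearer to 0 than the black points, as for Rims1 (0.23 against 0.47).

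Genes of dopamine synthesis, transport and reception had 8 positive and 9 negative values among 17 tested, with a median of -0.05, and of -0.03 with the cortical score. At an unadjusted p under 0.05 stood 1 positive member, Nr4a2, and 2 negative members, Slc18a2 and Drd3. These are 5.88% and 11.8% of the list, against 6.6% positive and 4.72% negative over all genes. Drd3, a D2-type receptor of the ventral striatum, had a median of 20.4 CPM in saline (6.69 to 26.5) and 12.6 CPM after amphetamine (6.42 to 20.4), a log2 fold change of -0.55 (SE 0.20, edgeR adjusted p = 0.295). The ranges overlapped, and the value was -0.33 with the cortical marker score as a covariate. The principal receptors had values near 0, with -0.06 (SE 0.09) for Drd1a and -0.05 (SE 0.09) for Drd2. The dopamine transporter gene Slc6a3 reached at most 0.646 CPM in any library, with a log2 fold change of -0.40 (SE 0.31). Th, tyrosine hydroxylase, ran from 5.39 to 16.3 CPM in saline and from 5.60 to 13.3 CPM after amphetamine, with a log2 fold change of -0.19 (SE 0.18). The cell bodies of the midbrain dopamine neurons lie outside the striatum.

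Projection neuron genes had small medians over both lines, with opposite signs in the lines. Of 11 tested genes of the direct pathway 3 were positive (median -0.06), of 10 of the indirect pathway 3 (median -0.07), and of 27 loci of striatal cAMP and calcium signalling 16 (median 0.01). In the control line the medians were 0.04 for the direct pathway (7 positive), 0.06 for the indirect pathway (9 positive) and 0.09 for cAMP and calcium signalling (23 positive). In the overactive line they were -0.11 (3 positive), -0.20 (2 positive) and -0.05 (8 positive), and the difference between the lines was not tested over a list. The cortical score gave medians of -0.05, -0.03 and 0.01 over both lines. Tac1, which encodes substance P, had a median of 243.8 CPM in saline (190.3 to 310.2) and 208.1 CPM after amphetamine (180.9 to 254.8), a log2 fold change of -0.20 (SE 0.08, edgeR adjusted p = 0.384). Pdyn, which encodes dynorphin, had the same log2 fold change of -0.20 (SE 0.11) and Penk, which encodes enkephalin, -0.09 (SE 0.10). The ranges of these 3 peptide genes overlapped between the sides. Isl1, a transcription factor of direct pathway neurons, had a log2 fold change of -0.35 (SE 0.10, edgeR adjusted p = 0.22), which was -0.06 with the cortical marker score. The kainate receptor gene Grik3 had 0.16 (SE 0.06). Rasgrp1, a Ras activator, had 0.19 (SE 0.07) and the kinase gene Camk2a 0.22 (SE 0.10), the latter 0.00 with the cortical score. Adora2a, the adenosine receptor of indirect pathway neurons, had -0.08 (SE 0.08) and Ppp1r1b 0.01 (SE 0.09).

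Immediate early transcription factors, the genes that D1 receptor stimulation switches on within an hour, had 14 positive members of 23 and a median of 0.06. At an unadjusted p under 0.05 stood 3 positive members and 0 negative ones by edgeR. In the control line alone 22 of 23 were positive with a median of 0.19, and in the overactive line 8 of 23 with a median of -0.12. With the cortical score 12 were positive over both lines (median 0.01), and 0 stood at that p. Fos had a lowest value of 7.09, a median of 10.5 and a highest value of 32.5 CPM in saline, and 5.74, 14.9 and 27.9 CPM after amphetamine. The highest value of either side was a saline library, number 3 of the overactive line. Fos had a log2 fold change of 0.27 (SE 0.30, edgeR adjusted p = 0.793), with 0.66 (SE 0.42) in the control line and -0.12 (SE 0.41) in the overactive line. Egr1 was at 0.00 (SE 0.18), Junb at 0.10 (SE 0.20), Nr4a1 at 0.06 (SE 0.27), Npas4 at -0.11 (SE 0.19) and Fosb at -0.16 (SE 0.22).

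That overactive saline library held the highest saline level of Fos (32.5 CPM), Arc (286), Nr4a1 (170), Fosb (46.0), Junb (90.3), Dusp1 (27.4) and Hspa1a (16.3), each apart from the other 4 libraries of its group. Without it the median of the immediate early list was 0.16. The log2 fold changes without it were 0.53 for Fos, 0.28 for Nr4a1, 0.26 for Junb, 0.14 for Egr1, 0.06 for Npas4 and 0.09 for Fosb. Without amphetamine library 5 of the control line the list's median was -0.02 instead. edgeR called 0 genes without the overactive saline library, with 1670 at an unadjusted p under 0.05.

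The 3 immediate early members at an unadjusted p under 0.05 were Ier2, Nr4a2 and Csrnp1. Nr4a2 (Nurr1), which is also needed for the identity of dopamine neurons, lies on chromosome 2 from 57106830 to 57124003 (GRCm38), and its promoter above held TGACG at 4 places. It had a lowest value of 9.06, a median of 17.2 and a highest value of 68.8 CPM in saline and 10.2, 49.7 and 56.7 CPM after amphetamine. The middle of the amphetamine side lay above that of the saline side, yet both the lowest and the highest value were saline libraries. Its log2 fold change was 0.94 (SE 0.31, edgeR adjusted p = 0.252) and 0.09 with the cortical marker score as a covariate. Ier2 had a log2 fold change of 0.57 (SE 0.16, edgeR adjusted p = 0.21) and Csrnp1 0.22 (SE 0.10). Once the cortical score was a covariate Ier2 had 0.29 and Csrnp1 0.08. Of 27 RefSeq promoters from 18 immediate early genes, 21 (77.8%) held TGACG and 2 (7.41%) held the full TGACGTCA.

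Activity-regulated effectors, the secreted and synaptic products that follow the transcription factors, had 19 positive members of 31 and a median of 0.09, against 17 and 0.03 with the cortical score. At an unadjusted p under 0.05 by edgeR stood 5 positive members (16.1%) and 1 negative one (3.23%), against 6.6% and 4.72% over all genes. Bdnf, the neurotrophin that cortical axons deliver to the striatum, had a median of 7.63 CPM in saline (3.41 to 17.98) and 12.3 CPM after amphetamine (6.00 to 22.9), a log2 fold change of 0.77 (SE 0.25, edgeR adjusted p = 0.236). Nptx1, a neuronal pentraxin, had 0.60 (SE 0.18) and Nrn1 (neuritin) 0.75 (SE 0.24). Nptx1 and Nrn1 stand on the cortical marker list as well, so the score contains their own values. With the cortical marker score the values were 0.04 for Bdnf, 0.03 for Nptx1 and 0.17 for Nrn1. Arc, a cytoskeletal protein of dendrites, had 0.29 (SE 0.32), and 0.54 without overactive saline library 3. Homer1 had 2 loci in the table, with 0.12 (SE 0.13) and -0.11 (SE 0.14). Of the 14 MAP kinase phosphatase and Sprouty genes, which damp ERK signalling, 9 were positive with a median of 0.01 (6 and -0.03 with the cortical score), and none stood at an unadjusted p under 0.05. Dusp1 among them had 0.23 (SE 0.15).

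Markers of cortical and hippocampal excitatory neurons had the largest list median of the 31 lists on the positive side. Of 22 symbols 21 were tested, 19 of these were positive, and the median was 0.69. At an unadjusted p under 0.05 by edgeR stood 17 (81.0%, against 6.6% over all genes), all positive. Slc17a7, the vesicular glutamate transporter VGLUT1 of cortical neurons, had a lowest value of 78.5, a median of 202.2 and a highest value of 594.6 CPM in saline. After amphetamine it had 126.7, 487.3 and 715.3 CPM. The sides overlapped widely, and the lowest levels were overactive saline libraries. The log2 fold change was 1.03 (SE 0.31, edgeR adjusted p = 0.22, DESeq2 adjusted p = 0.0418), with 0.47 (SE 0.40) in the control line and 1.6 (SE 0.41) in the overactive line. Rtn4rl2, a Nogo receptor relative, had 1.06 (SE 0.31). The median of the list was 0.29 in the control line and 0.86 in the overactive line. With the list's own score as a covariate the median was 0.02, and 0 members stood at an unadjusted p under 0.05. The score is the mean of these same markers, so a median near 0 follows from how it is made.

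Over all genes, the number at an unadjusted p under 0.05 was 634 (3.685%) with the cortical marker score as a covariate, 334 positive and 300 negative. Of the 1948 genes without the covariate, 321 (16.48%) were also among these 634 with the same sign. Of the 183 genes called by DESeq2, 80 were. The number was 2089 with the score of thalamic, hypothalamic and septal markers and 815 with both scores.

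**Figure D3:**
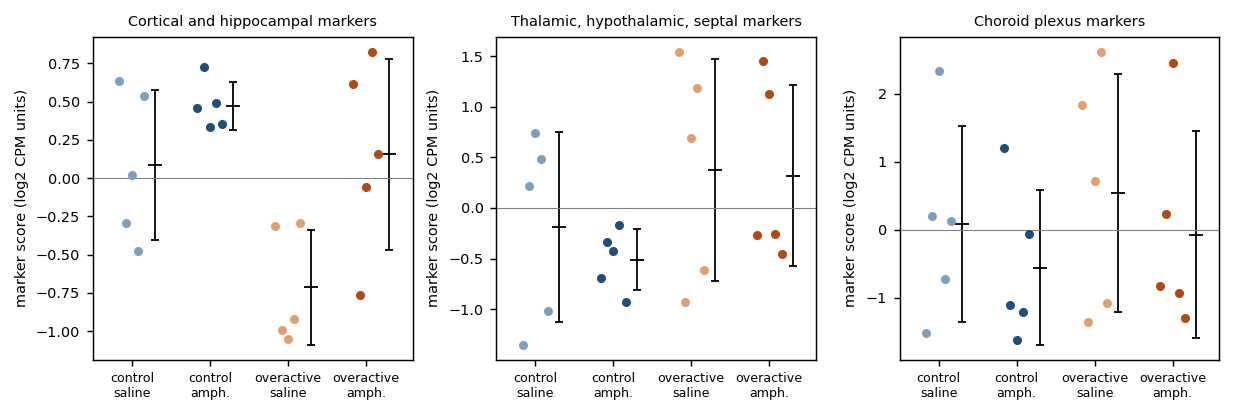
Score per library (log2 CPM averaged over the markers, centred on the 20 libraries) of cortical and hippocampal, thalamic to septal, and choroid plexus markers in the 4 groups; each point is 1 mouse and the bars are mean and SD of 5. Cortical scores run from -1.05 to 0.63 in saline and from -0.77 to 0.83 after amphetamine, and choroid plexus scores run from -1.61 to 2.62 over all libraries.

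Marker lists of other neighbouring regions and cells had negative medians over both lines. All 13 tested choroid plexus markers were negative (median -0.68), with 0 at an unadjusted p under 0.05 by edgeR. Ttr (transthyretin), the major choroid plexus transcript, ran from 1.06 to 738.9 CPM in saline and from 0.957 to 832 CPM after amphetamine, with a log2 fold change of -1.09 (SE 1.13). Leaving out 1 library moved the list's median to -1.39 without overactive amphetamine library 3, to -0.40 without overactive saline library 4 and to -0.28 without control saline library 3. Of 22 thalamic, hypothalamic and septal loci 15 were negative (median -0.29), and Oxt (oxytocin) had -1.98 (SE 0.85). In each direction 2 stood at an unadjusted p under 0.05 (9.09%, against 6.6% positive and 4.72% negative over all genes). Rora, with 0.28 (SE 0.08), was among the positive ones and stands on the circadian clock list as well. The median of the 22 thalamic, hypothalamic and septal loci was -0.02 without overactive saline library 1 and -0.17 without control saline library 3. Tcf7l2, a thalamic transcription factor, had -0.16 (SE 0.32). Of 14 ependymal markers 12 were negative (median -0.24) and of 18 meningeal and fibroblast markers 17 (median -0.23), with Col1a2, a fibrillar collagen gene, at -0.34 (SE 0.16). Both lists differed in sign between the lines: the ependymal median was 0.02 in the control line and -0.58 in the overactive line (7 and 2 positive of 14), and the meningeal median -0.49 and 0.06 (0 and 11 positive of 18). Without control saline library 3 the meningeal median was -0.08. Without 1 of the overactive amphetamine libraries the ependymal median ran from -0.42 (library 3) to -0.12 (library 1), with -0.15 without either library 4 or 5. Adding the cortical score as a covariate gave medians of -0.21 for the choroid plexus, 0.17 for the thalamic to septal, 0.02 for the ependymal and -0.15 for the meningeal list, so the sign of the second and the third turned.

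The medians of glial and vascular lists were -0.06 over 22 endothelial and mural markers, -0.01 over 17 microglial markers, -0.03 over 15 astrocyte markers, 0.01 over 14 oligodendrocyte markers and -0.07 over 12 oligodendrocyte precursor markers. The endothelial and mural list had opposite signs in the lines, with 1 positive member in the control line (median -0.15) and 17 in the overactive line (median 0.08). In the order above, the 5 medians were -0.06, -0.02, 0.01, 0.10 and 0.04 with the cortical score, where 12 of 14 oligodendrocyte markers were positive. Across these 5 lists, 2 members stood at an unadjusted p under 0.05, both negative: Sox9, an astrocyte transcription factor, with -0.22 (SE 0.07) and the precursor marker Pcdh15 with -0.13 (SE 0.06). They make 6.67% of the astrocyte and 8.33% of the precursor markers, against 4.72% negative over all genes. The endothelial, microglial and oligodendrocyte lists had 0 in either direction. Striatal interneuron markers had a median of -0.05 over 18 loci, 9 positive, and of 0.09 in the fit with the cortical score. Without that score 3 positive (16.7%) and 2 negative (11.1%) members stood at an unadjusted p under 0.05. Over all genes these shares were 6.6% and 4.72%. The peptide genes Cck (0.87, SE 0.26) and Vip (0.80, SE 0.28) had values of 0.10 and -0.05 with the cortical score, and both are also expressed in cortex. The serotonin receptor gene Htr3a had 0.34 (SE 0.12) and, with the cortical score, 0.47 (unadjusted p = 0.0061 by edgeR). Lhx8, a transcription factor of cholinergic neurons, had -0.35 (SE 0.15) and 0.08 with the cortical score.

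Ion channel and receptor subunits were mostly positive. Of 36 potassium channel loci 33 were positive (median 0.10). At an unadjusted p under 0.05 by edgeR stood 8 (22.2%, against 6.6% over all genes), all positive. In the fit with the cortical score 26 were positive (median 0.06) and 1 stood at that p. Kcnh7, an Erg-type channel, had a median of 8.27 CPM in saline (6.24 to 11.9) and 14.2 CPM after amphetamine (6.57 to 18.3), a log2 fold change of 0.70 (SE 0.16, edgeR adjusted p = 0.165). Kcnj3, a subunit of the channel that G protein-coupled receptors open, had a median of 50.7 CPM in saline (33.4 to 67.6) and 64.3 CPM after amphetamine (55.6 to 83.5), a log2 fold change of 0.43 (SE 0.11, edgeR adjusted p = 0.199). The auxiliary subunit gene Kcnab2 had 0.20 (SE 0.05). DESeq2 called Kcnj3 and Kcnab2, each at an adjusted p of 0.0259, and gave Kcnh7 no adjusted p. The ranges of Kcnh7 and Kcnj3 overlapped, and with the cortical score their values were 0.29 and 0.17.

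Of 25 loci of glutamate receptor subunits 19 were positive (median 0.05), with 5 positive (20%) and 1 negative (4%) at an unadjusted p under 0.05. Over all genes these shares were 6.6% and 4.72%. Grin2a, an NMDA receptor subunit, had 0.21 (SE 0.08) and the kainate receptor gene Grik4 0.12 (SE 0.05). Of 15 loci of GABA receptor subunits 12 were positive (median 0.08). At an unadjusted p under 0.05 stood 2 (13.3%), Gabra5 and the GABA-B receptor gene Gabbr2 with 0.32 (SE 0.10). With the cortical score Gabbr2 had 0.10, while Gabra5 kept 0.15. The GABA list had 11 positive members (median 0.06) and the glutamate list 18 (median 0.06) with that score.

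**Figure D4:**
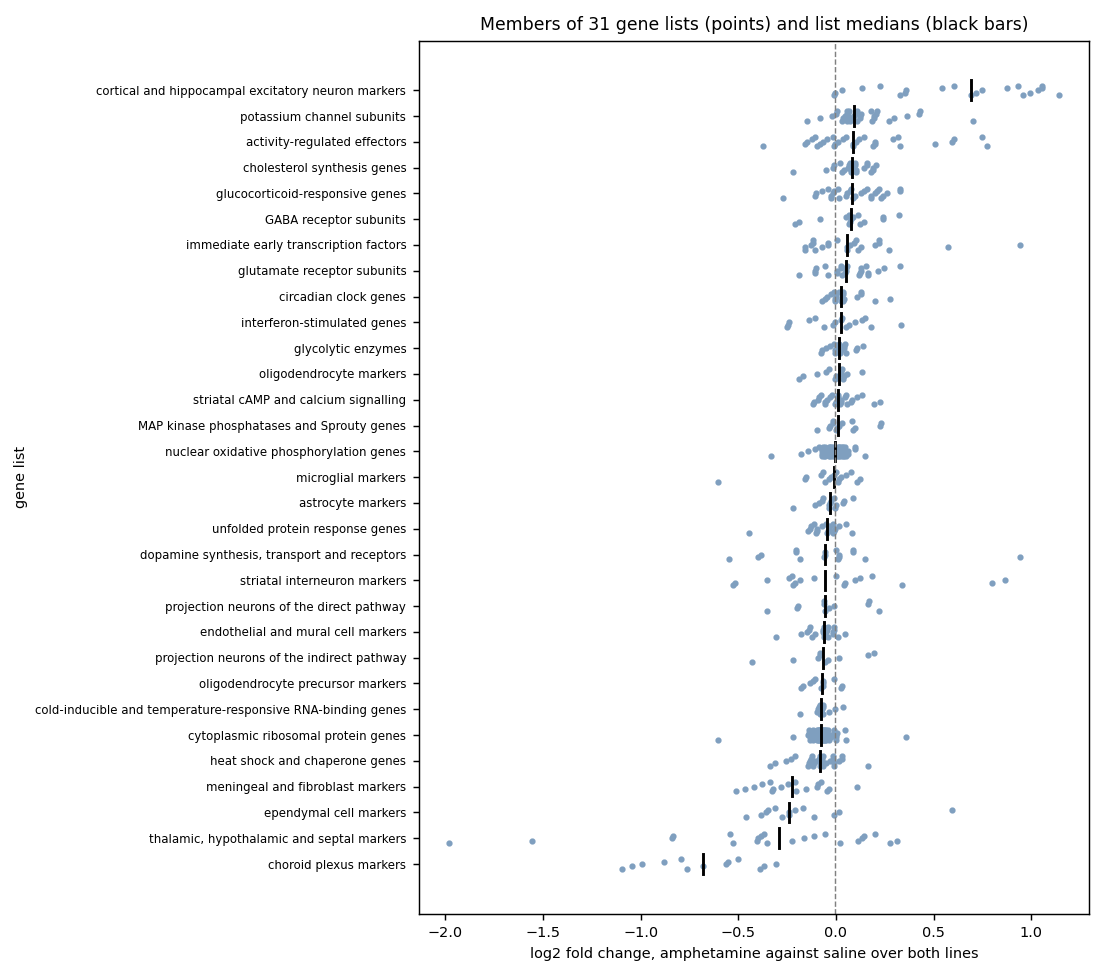
Log2 fold change, amphetamine against saline over both lines, of the tested members of 31 gene lists (points) with the list median (black bar), ordered by median. Cortical markers lie farthest to the right (median 0.69) and choroid plexus markers farthest to the left (median -0.68), while most other lists lie within 0.1 of 0.

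Genes of the heat and stress responses were mostly negative and small in size. Of 31 heat shock and chaperone loci 27 were negative (median -0.08). At an unadjusted p under 0.05 by edgeR stood 4 (12.9%, against 4.72% over all genes), all negative. With the cortical score 25 were negative (median -0.06) and 0 stood at that p. Hspe1, the mitochondrial co-chaperonin, lies on chromosome 1 from 55088148 to 55091317 (GRCm38). It had a median of 54.9 CPM in saline (47.2 to 64.8) and 51.7 CPM after amphetamine (44.1 to 57.2), a log2 fold change of -0.14 (SE 0.05, edgeR adjusted p = 0.32). Its promoter above held TTCNNGAA at 2 places, as 6 of 33 promoters of the list did at least once (18.2%), and 13 of 33 held GAANNTTC (39.4%). Hspb8, a small heat shock protein gene, had -0.34 (SE 0.13) and the immunophilin gene Fkbp4 -0.13 (SE 0.06). The heat-inducible Hspa1a had -0.31 (SE 0.20), and -0.10 without overactive saline library 3. Hspa1a has a near-identical neighbour, Hspa1b, so its counts are uncertain. The constitutive Hspa8 had -0.07 (SE 0.07).

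RNA-binding genes that respond to temperature had 13 negative loci of 14 (median -0.07). At an unadjusted p under 0.05 stood 6 (42.9%, against 4.72% over all genes), all negative. The splicing factor genes among them included Tra2a at one of its loci (-0.18, SE 0.05) and Srsf1 (-0.09, SE 0.03, DESeq2 adjusted p = 0.03335). With the cortical marker score 13 were still negative (median -0.05), and 0 stood at that p. Cirbp shared its locus with other symbols and has no value of its own. Of 21 loci of the unfolded protein response 18 were negative (median -0.04), against 14 with the cortical score (median -0.03). Ddit3 (CHOP), at one of its loci, had -0.14 (SE 0.05) and Trib3, a target of ATF4 and CHOP, -0.45 (SE 0.16). These 2 (9.52% of the list, against 4.72% over all genes) stood at an unadjusted p under 0.05. They also did with the cortical score, at -0.17 and -0.61. Of 17 interferon-stimulated genes 9 were positive (median 0.03), with 0 at an unadjusted p under 0.05 by edgeR. Their median was -0.12 in the control line (5 positive), 0.12 in the overactive line (12 positive) and -0.12 with the cortical score (5 positive). It ran from -0.05 without control amphetamine library 1 to 0.10 without control saline library 5, and was negative in 5 of the 20 fits that left out 1 library.

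Glucocorticoid-responsive genes had 21 positive loci of 30 (median 0.08). At an unadjusted p under 0.05 by edgeR stood 2, both positive, which is 6.67%, near the 6.6% over all genes. With the cortical score 24 were positive (median 0.09). Klf9, a glucocorticoid-induced transcription factor, had a median of 248.3 CPM in saline (198.7 to 287) and 291.1 CPM after amphetamine (235.6 to 369.8), a log2 fold change of 0.20 (SE 0.07, edgeR adjusted p = 0.252). Zbtb16 had 0.33 (SE 0.15). The ranges of Klf9 overlapped. Fkbp5, the co-chaperone that dampens the glucocorticoid receptor, was at 0.05 (SE 0.08), and the kinase gene Sgk1 at 0.22 (SE 0.16). Circadian clock genes had 15 positive loci of 22 (median 0.03), with Rora at 0.28 (SE 0.08) and Per1 at -0.01 (SE 0.09). Rora stands on the thalamic, hypothalamic and septal list as well. With the cortical score the clock list turned, with 18 negative loci of 22 and a median of -0.02.

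Of 24 cholesterol synthesis genes 20 were positive (median 0.08). At an unadjusted p under 0.05 stood 6 (25%, against 6.6% over all genes), all positive. Hmgcs1, which makes HMG-CoA, had a median of 199.6 CPM in saline (164.5 to 255) and 240 CPM after amphetamine (205.4 to 277.1), a log2 fold change of 0.19 (SE 0.08, edgeR adjusted p = 0.35). Fdft1, squalene synthase, had 0.14 (SE 0.06). With the cortical score as a covariate these were 0.05 and 0.09, and the list had 13 positive members (median 0.01). Of 19 glycolytic enzyme genes 12 were positive (median 0.01), and 9 with the cortical score (median -0.0030), with Hk1 (hexokinase 1) at 0.14 (SE 0.04) and Pfkl at 0.11 (SE 0.05).

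Cytoplasmic ribosomal protein genes had 78 negative loci of 82 (median -0.07). At an unadjusted p under 0.05 by edgeR stood 8 (9.76%, against 4.72% over all genes), all negative. Rpl14 had a median of 175 CPM in saline (166.5 to 185.2) and 157.3 CPM after amphetamine (136.7 to 193.1), a log2 fold change of -0.14 (SE 0.05). Rpsa had -0.12 (SE 0.05) and the muscle paralogue Rpl3l, below 1 CPM in every library, -0.60 (SE 0.25). Ribosomal protein genes have many processed pseudogenes, so single values are uncertain. With the cortical marker score 79 were negative (median -0.07). The median stayed negative without any 1 library, from -0.10 to -0.06. Nuclear genes of oxidative phosphorylation were spread around 0, with 35 positive of 76 (median -0.0062) and 26 with the cortical score (median -0.02), Ndufb4 at 0.10 (SE 0.04), Ndufb10 at -0.07 (SE 0.03) and Cox5a at -0.09 (SE 0.04).

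A stretch of chromosome 12 was singled out after its values were seen. It is the imprinted Dlk1 to Dio3 region, where Dlk1 and Rtl1 are transcribed from the paternal copy and the noncoding genes Meg3, Rian and Mirg, with a large cluster of miRNAs, from the maternal copy. Of its loci with a symbol 9 were tested, and all 7 with a mean of at least 1 CPM had negative values in both lines and an unadjusted p under 0.05 by edgeR. Over all genes 4.72% were negative at that p. Because the stretch was chosen for these values, the count of 7 is no test of it. Meg3 was listed at 0 in all 20 libraries. Dlk1, a Notch ligand relative, ran from 19.96 to 107 CPM in saline (median 70.1) and from 16.5 to 86.2 CPM after amphetamine (median 43.3), a log2 fold change of -0.57 (SE 0.22, edgeR adjusted p = 0.322). Rtl1, a gene derived from a retrotransposon, ran from 10.4 to 20.9 CPM in saline (median 18.7) and from 11.9 to 19.1 CPM after amphetamine (median 13.3), a log2 fold change of -0.31 (SE 0.10, edgeR adjusted p = 0.241). The ranges of both overlapped.

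The maternal noncoding loci had values of -0.11 (SE 0.04) for the locus of Rian and Mir370 and -0.23 (SE 0.10) for Mirg. The locus of Mir134 and its neighbours ran from 58.2 to 80.1 CPM in saline (median 70.8) and from 52.6 to 64.5 CPM after amphetamine (median 56.7), a log2 fold change of -0.28 (SE 0.06, edgeR adjusted p = 0.165, DESeq2 adjusted p = 0.00534). The Mir136 locus ran from 5.46 to 12.6 CPM in saline (median 9.99) and from 4.30 to 8.62 CPM after amphetamine (median 6.91), a log2 fold change of -0.63 (SE 0.16, edgeR adjusted p = 0.199). The locus of 6430411K18Rik and Mir127 had -0.31 (SE 0.07). In each of these loci the 2 sides overlapped. After adding the cortical marker score the Mir136 locus had -0.43, the Mir127 locus -0.24 and the Mir134 locus -0.17, all at an unadjusted p under 0.05, so 3 of the 7 loci stayed at that p. Over all genes 3.685% stood at that p in the fit with this score. Dlk1 had -0.17, Mirg -0.13, Rtl1 -0.10 and the locus of Rian -0.07, and these 4 did not. The other 2 tested loci, both below 1 CPM in every library, were positive.

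**Figure D5:**
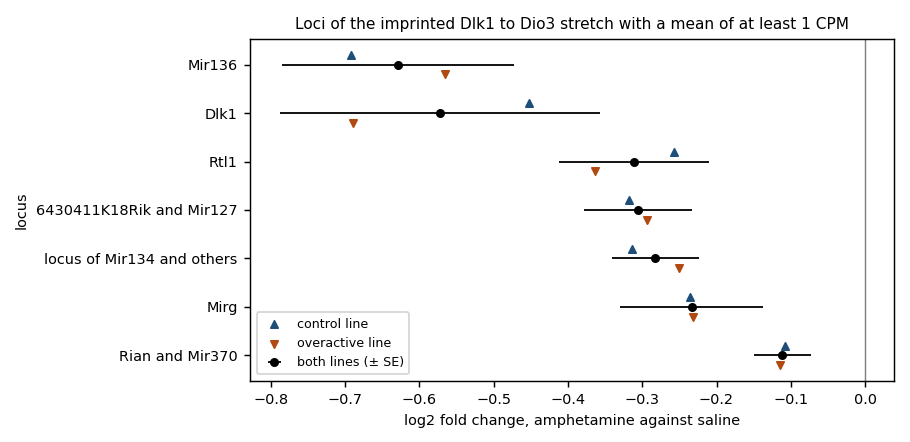
Log2 fold change, amphetamine against saline, of the 7 loci of the Dlk1 to Dio3 stretch with a mean of at least 1 CPM; black points with SE bars are both lines together and triangles are each line. All values lie below 0 in both lines, from -0.63 for the Mir136 locus to -0.11 for the locus of Rian.

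The mature miRNAs of Mir127 and Mir136 are shown because their loci lie on the strand opposite to Rtl1, with the seed (bases 2 to 8) in capitals (RefSeq, GRCm38.p6, plus strand).
mmu-miR-127-5p: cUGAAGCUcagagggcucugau
mmu-miR-127-3p: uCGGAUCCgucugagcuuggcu
mmu-miR-136-5p: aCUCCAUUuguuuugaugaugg
mmu-miR-136-3p: aUCAUCGUcucaaaugagucuu
None of the 4 shares its seed with another. The Rtl1 gene spans 109564900 to 109604418 on chromosome 12, and 29 mature miRNAs of 15 hairpin genes lie within that span. The reverse complement of 11 of these, from 6 hairpin genes, occurs in the Rtl1 transcript of GENCODE M21, those of Mir127 and Mir136 among them. Whether counting used strand is not given in the sources used here, so reads of Rtl1 and of the opposite loci cannot be told apart. The counts are per locus and give no separate value for a mature miRNA.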

How the data were processed

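RNA of the whole striatum of 20 mice was extracted with a lipid tissue kit and sequenced with paired ends, per the labels' protocols. The authors deposited 1 table of expected counts, which are estimated counts per locus, not scaled between libraries. Of its values 93.92% were whole within 0.01. The genome builds mm10 and GRCm38 are named per the submitters' processing notes, while the aligner, the counter and their strand setting are not given in the sources used here. Loci without a symbol (10576, holding 0.6495% of counts) stayed out of library sizes and tests. Tested separately, 4940 of them gave 0 calls by edgeR and 333 at an unadjusted p under 0.05. Of the loci with a symbol, 626 carry several, 27 symbols have turned into dates, and 4155 are listed at 0 in all libraries, Mbp and Slc1a2 among them.

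Expected counts were rounded and analysed in R 4.3.3 with edgeR 4.0.16: filterByExpr on the 4 groups, TMM scaling, and a quasi-likelihood model of line and treatment on all 20 libraries. Tests were two-sided, and a call was an adjusted p (Benjamini-Hochberg over 17206 genes) under 0.05. The values within a line and the interaction came from a model with 1 mean per group. A marker score is the mean deviation of log2 CPM (prior count 2) over a list. The model was tested on simulated data. Alternatives were scaling by RLE or by upper quartile, testing without a filter or with a minimum of 1 CPM in at least 5 libraries, limma-voom 3.58.1, DESeq2 1.42.0, a replicate block, each line alone, marker scores as covariates, leaving out the 4 libraries highest in thalamic markers, 1 surrogate variable (sva 3.50.0), and leaving out each library.

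Named genes were the 12 loci with the smallest p in each direction (1 symbol, mean of at least 1 CPM, no predicted-gene, clone or small RNA name), up to 3 members of each list at an unadjusted p under 0.05, and 29 genes set in the rule, of which Cirbp has no locus of its own. Of the genes the rule took, 3 are not reported here. Where a symbol has several loci, the value is that of the locus the rule took. The members and the 31 lists were chosen with earlier results of these data known. Gene positions, promoters and miRNAs are RefSeq GRCm38.p6, which matched 104 of 109 named loci. The labels describe each library as 1 mouse. Chi-square per locus between libraries of a group was 17.4 to 50.4, so none was taken as a duplicate. Figures used Python 3.11.15, pandas 2.3.3 and matplotlib 3.10.9.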

Additional observations from a re-analysis of the deposited data

Results flagged for a closer look

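Among the 112 items named or scored, 448 groups of 5 libraries were examined for a single library far from the others (Dixon's criterion, gap over range above 0.71). It marked 30 values, 24 high and 6 low, and chance marks about 1 in 20 groups. Overactive saline library 3 stood high in 7 genes: Fos at 32.5 CPM (next 13.5), Nr4a1 at 170 (next 72.9), Arc at 286 (next 111), Fosb at 46.0 (next 19.3), Junb at 90.3 (next 43.1), Dusp1 at 27.4 (next 18.3) and Hspa1a at 16.3 (next 6.83). These are genes of rapid neuronal activity and of the heat response, in a mouse labelled as given saline. Control amphetamine library 2 stood high in 5 genes, with Nptx1 at 287 CPM, Camk2a at 2380, Rtn4rl2 at 27.4, Cox5a at 121 and Th at 13.3. Control saline library 1 stood high in Ier2 at 2.94 CPM and in Bdnf at 18.

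Ttr, the choroid plexus transcript, was marked in 3 groups, at 216 CPM in control amphetamine library 1, 654 in control saline library 3 and 832 in overactive amphetamine library 3. Control amphetamine library 1 was also low in Ndufb10 at 79.6 CPM and high in Rtl1 at 16.2. In control amphetamine library 5, Grik4 was low at 21.4 CPM and Ppp1r1b high at 1700 CPM, and in control amphetamine library 4 Col1a2 was high at 5.71. In overactive amphetamine library 5, Klf9 was high at 317 CPM and Trib3 at 1.65. Overactive amphetamine library 4 was high in Fdft1 at 99.4 CPM and low in Pcdh15 at 23.4, while overactive saline library 4 was high in Pcdh15 at 35.4. The remaining low values were Hmgn1 at 85.1 CPM in control saline library 4, Hspa8 at 1640 in overactive amphetamine library 3, and the locus of 6430411K18Rik and Mir127 at 5.34 in overactive amphetamine library 1.

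The test of the difference between the lines in the response to amphetamine called 0 genes by edgeR. Of the 17206 genes tested, 510 stood at an unadjusted p under 0.05, fewer than that threshold alone would give if no gene differed.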

How the results depend on the processing

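DESeq2 called 143 genes higher and 40 lower, and 28 named loci passed there. Leaving out 1 library gave 0 to 4 genes higher and 0 to 0 lower by edgeR: without control saline replicate 1 these were Hivep1, Sh3gl2, Pgm2l1 and Gabra5, and without overactive amphetamine replicate 2 Prkce, Pgm2l1 and Gabra5. Every other alternative run called 0 genes. The number at an unadjusted p under 0.05 was 634 with the cortical score, against 1948.

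Deviations from the group mean in same-numbered libraries had correlations from -0.2323 to 0.2471, with a median of 0.035 and 10 of 30 above 0.1. The median was -0.0085 for libraries of different number and group, and 6 of 20 libraries were closest to their own number. These values do not settle whether same-numbered libraries deviate together. With the replicate number as a block 0 genes were called, with 1988 at an unadjusted p under 0.05, and Egr1 had -0.00207.

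No gene passed in the main edgeR fit, so the signs that turned could only be of genes that had not passed. With 1 surrogate variable they were Oxt 0.48, Ppp1r1b -0.068, Homer1 -0.059, Nr4a1 -0.19, Arc -0.011, Ttr 0.64, Egr1 -0.22, Tcf7l2 0.29 and Junb -0.063. In the control line alone they were Adora2a 0.017, Per1 0.034, Drd1a 0.013, Npas4 0.090, Penk 0.071, Fosb 0.19 and Drd2 0.059. In the overactive line alone they were Ppp1r1b -0.048, Fos -0.11, the second Homer1 locus 0.021, Nr4a1 -0.16, Fkbp5 -0.068, Egr1 -0.13, Tcf7l2 0.12 and Junb -0.11. The cortical score gave Pfkl -0.010, Lhx8 0.078, Vip -0.049, Homer1 -0.012, Nr4a1 -0.0076, Egr1 -0.14, Tcf7l2 0.32 and Th 0.13. Both scores gave Bdnf -0.028, Pfkl -0.027, Lhx8 0.032, Vip -0.13, Adora2a 0.0089, Drd1a 0.032, Egr1 -0.042, Tcf7l2 0.097, Penk 0.063, Fosb 0.0062, Th 0.064 and Drd2 0.030. The thalamic score gave Ppp1r1b -0.015, Nr4a1 -0.014, Ttr 0.051 and Egr1 -0.060. Upper quartile scaling gave Egr1 -0.00282, and leaving out the 4 libraries highest in thalamic markers gave Ppp1r1b -0.026. Leaving out 1 library gave ranges of -0.055 to 0.035 for Per1, -0.040 to 0.045 for Ppp1r1b, -0.042 to 0.28 for Nr4a1, -0.055 to 0.14 for Egr1, -0.19 to 0.062 for Npas4, -0.23 to 0.090 for Fosb, -0.019 to 0.26 for Junb and -0.044 to 0.26 for the locus of Mir1197, the Mir1197 locus having been chosen after values were seen. The cause of these turns was not tested. With a median SE of 0.077, small differences lie within the error.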
